A study of Mus musculus with 28 samples.

Results

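The 14 uninjured arrays of a mouse brain series were compared by genotype: 7 cortices of Rbm5 knockout (KO) mice against 7 cortices of wild-type (WT) mice, all after sham treatment, out of 28 arrays in all. The members were chosen by the genotype and injury labels alone. Every transcript cluster on the array entered the comparison except the manufacturer's control rows. A transcript cluster is the array's unit for a gene or other transcribed locus, and 65956 of them were tested.

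In the series, mice of either genotype were anaesthetised, and the animals of the other 14 arrays then received a craniotomy over the left parietal cortex and a controlled cortical impact (CCI), a model of traumatic brain injury. The sham mice had no craniotomy. All animals were 12 to 15 weeks old, both sexes were present in each group (3 males and 4 females in WT sham, 4 males and 3 females in KO sham), and brain tissue was taken 48 hours after the procedure, following perfusion with cold saline. Total RNA (100 ng) was biotin-labelled and hybridised to the Affymetrix MTA 1.0 array, with 1 animal per array as far as the labels tell. The labels name no strain, no targeted allele, no promoter or Cre line, and do not say whether WT and KO mice were littermates, so a difference between the groups can hold differences of genetic background as well as of Rbm5. These limits touch every value below.

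Rbm5 encodes a nuclear RNA-binding protein that takes part in early spliceosome assembly and shifts the choice of splice sites. Its G-patch domain stimulates the RNA helicase Dhx15, and its best known targets in cultured cells are apoptosis genes such as Casp2, Fas and Cflar. Each array value used here stands for a whole transcript cluster and does not separate its splice forms. How the probe signals were combined into that value is not stated in the labels. Whether a change in splice choice moved any of these values was not tested.

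The 14 sham arrays had close overall levels, with array medians between 5.79 and 5.86 on the deposited log2 scale. Markers of cortical neurons were bright in both genotypes: Neurod6, a transcription factor of excitatory neurons, read between 11.74 and 12.64 over the 14 arrays, and the interneuron peptide gene Sst between 14.38 and 15.38. The sex label fitted the sex-linked genes on 28 of 28 arrays. WT sham replicate 25 stood apart most visibly in choroid plexus signal: Ttr, the transthyretin gene made there, read 15.97 on it and 7.20 to 11.78 on the other WT sham arrays. It also lay outside the other WT sham arrays in Kl, Ddit3, Ndufs3, Homer1, Kcnt2 and Rbm6. The titles number the arrays in 2 runs (1 to 24 and 25 to 42), each with all 4 groups, and the labels do not call these batches. Values within each run are given where a count rests on them.

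Rbm5 itself fell to about the same level in every KO animal. Its signal was 10.70 to 10.82 (median 10.78) on the WT sham arrays and 9.66 to 9.84 (median 9.78) on the KO sham arrays. The groups did not overlap, and the WT and KO animals each stayed within a narrow band. The fitted difference was -1.02 on the log2 scale (SE 0.04), or 2.02-fold lower, with an adjusted p of 5.6e-16 (limma, Benjamini-Hochberg over all 65956 transcript clusters). The labels do not say which part of the gene was removed, and probes that lie outside it may go on reporting signal, so the level in KO does not measure how much protein was left. The gene lies on the minus strand of chromosome 9. The 300 bases around its start, 250 before and 50 after, at chr9:107770953-107771252 (RefSeq, GRCm38.p6, printed 5′ to 3′ on the minus strand), are shown because this is the targeted locus, and the same window of Dhx15, at chr5:52190497-52190796 on the minus strand, because its product is the partner helicase and its signal rose. Capitals mark GCCATNTT, the core letters bound by the transcription factor Yy1, searched on both strands and chosen after the sequences were seen.
Rbm5: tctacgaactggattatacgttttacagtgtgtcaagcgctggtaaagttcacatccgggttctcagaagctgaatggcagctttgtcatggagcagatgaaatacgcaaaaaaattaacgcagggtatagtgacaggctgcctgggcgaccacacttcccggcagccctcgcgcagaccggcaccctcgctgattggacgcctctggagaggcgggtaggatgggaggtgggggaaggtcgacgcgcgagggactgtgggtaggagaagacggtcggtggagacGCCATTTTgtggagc
Dhx15: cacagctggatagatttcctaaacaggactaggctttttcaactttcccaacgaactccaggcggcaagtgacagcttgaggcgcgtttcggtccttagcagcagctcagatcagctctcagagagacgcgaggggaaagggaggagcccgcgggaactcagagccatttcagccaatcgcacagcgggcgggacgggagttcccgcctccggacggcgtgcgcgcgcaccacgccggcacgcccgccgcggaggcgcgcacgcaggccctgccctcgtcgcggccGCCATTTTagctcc
Each window held 1 match, whose first base was base 36 of the Rbm5 transcript and base 37 of the Dhx15 transcript. The motif was present in 1988 of 32851 promoter windows of this length (6.05%), and a match is a description of the letters only.

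Across the array, 847 transcript clusters were called at an adjusted p under 0.05, which is 1.28% of those tested, with 335 higher in KO (0.508%) and 512 lower (0.776%). The calls came from distinct kinds of transcript. Clusters with a named gene gave 278 calls, 176 higher and 102 lower, small RNA clusters gave 231, of which 227 were lower, predicted gene models gave 59, and clusters with no name here gave 279. Most differences were small: the median size over the calls was 0.36 on the log2 scale, and 0.25 over the named genes. At least a 2-fold difference was reached by 3 clusters higher and 7 lower in KO, and at least 1.5-fold by 30 and 84. The 7 KO and 7 WT values did not overlap for 441 of the 847 calls and for 199 of the 278 named calls, against 1.07% of all clusters tested and 1.9% of named genes.

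The size of the list moved with which arrays were in the fit. Called rows with identical values on all 28 arrays, which are copies of the same probes, left 743 distinct profiles, 335 higher and 408 lower. Of the 847 calls, 337 (39.8%) kept their call without every single sham array, and 115 of these were named genes. Leaving out KO sham replicate 32 raised the count to 895 (258 higher, 637 lower), whereas leaving out KO sham replicate 11 gave 438 calls (178 higher, 260 lower) and leaving out KO sham replicate 12 gave 447 (185 and 262). Without WT sham replicate 1, 2, 26 or 27 the count was 524, 488, 520 or 557. The calls higher in KO numbered 220, 198 and 214 without WT sham replicate 1, 2 or 27. Those lower numbered 304, 290, 294 and 335 without WT sham replicate 1, 2, 26 or 4, and 315 and 335 without KO sham replicate 9 or 10. Without the array rich in choroid plexus signal, WT sham replicate 25, 628 calls remained as a count (237 higher, 391 lower). Centring each array on its own median moved the split to 341 higher and 345 lower. Within the first run of title numbers (4 against 4 sham arrays) 472 clusters were called, 93 higher and 379 lower, and within the second (3 against 3) 5 were called, 1 higher and 4 lower.

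**Figure D1:**
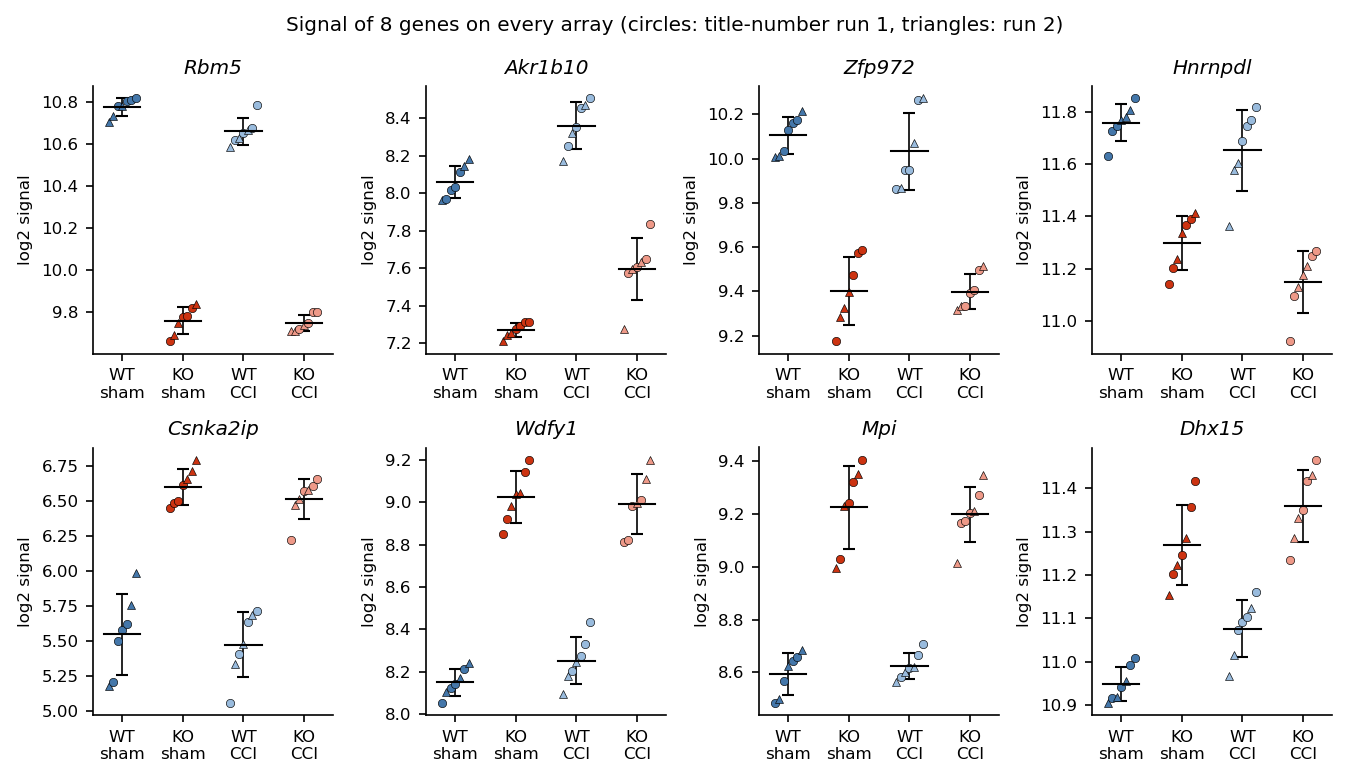
Deposited log2 signal (y axis) of 8 genes on each of the 28 arrays by group, with circles for title numbers 1 to 24 and triangles for 25 to 42; the horizontal bar is the group mean and the whisker 1 SD. For Rbm5, Akr1b10, Zfp972 and Hnrnpdl every KO sham array lies below every WT sham array, and for Csnka2ip, Wdfy1, Mpi and Dhx15 every KO sham array lies above.

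Among called genes, the 15 named genes that fell furthest covered enzymes, signalling proteins, channels and nuclear proteins. After Rbm5 came Akr1b10, an aldo-keto reductase that reduces carbonyl compounds, at 7.96 to 8.18 (median 8.04) in WT and 7.21 to 7.31 (median 7.28) in KO, a fall of 0.79 (SE 0.06, adjusted p = 1.8e-08). Zfp972, a zinc finger gene of chromosome 2, read 10.01 to 10.22 (median 10.13) in WT and 9.17 to 9.59 (median 9.40) in KO, a difference of -0.70 (SE 0.07, adjusted p = 9.5e-07). Rasgrf2, a Ras and Rac exchange factor and a marker of upper-layer cortical neurons, read 12.07 to 12.21 (median 12.18) against 11.39 to 11.72 (median 11.47), a difference of -0.64 (SE 0.10, adjusted p = 3.7e-04). In these 3 genes every KO animal was below every WT animal. Chrdl1, a secreted antagonist of bone morphogenetic proteins, read 7.77 to 8.07 (median 7.93) in WT and 7.12 to 7.50 (median 7.28) in KO and fell by 0.63 (SE 0.09, adjusted p = 1.7e-04). Akap8l, a nuclear anchoring protein related to the A-kinase anchors, read 11.04 to 11.24 (median 11.11) against 10.47 to 10.78 (median 10.64), -0.51 (SE 0.06, adjusted p = 5.4e-06). Prkab2, a regulatory subunit of the energy sensor AMPK, read 9.60 to 9.89 (median 9.72) against 9.22 to 9.36 (median 9.28), -0.47 (SE 0.05, adjusted p = 3.4e-06). Their groups did not overlap either.

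Hnrnpdl, an hnRNP protein that binds AU-rich RNA and regulates splicing, read 11.63 to 11.85 (median 11.77) in WT and 11.14 to 11.41 (median 11.34) in KO, a difference of -0.47 (SE 0.06, adjusted p = 7.6e-05). Emb, which encodes the membrane glycoprotein embigin, read 9.30 to 9.44 (median 9.40) against 8.80 to 9.10 (median 8.92), -0.46 (SE 0.08, adjusted p = 0.0026). Macrod2, an ADP-ribose hydrolase, read 8.27 to 8.49 (median 8.35) against 7.91 to 8.04 (median 7.98), -0.40 (SE 0.05, adjusted p = 6.5e-05). These 3 also separated the genotypes on every array. Cfap300, a protein of motile cilia, differed by -0.51 (SE 0.09, adjusted p = 0.0040) without overlap, from 9.29 to 9.73 (median 9.46) in WT and 8.67 to 9.20 (median 9.05) in KO. Its highest WT values, 9.73 and 9.61, came from replicates 25 and 2, where Ttr was also highest in WT sham (15.97 and 11.78). A part of choroid plexus tissue in this difference was not tested. Hgf, the hepatocyte growth factor gene, fell by 0.39 (SE 0.07, adjusted p = 0.0038), from 7.33 to 7.79 (median 7.56) in WT and 7.04 to 7.41 (median 7.14) in KO, with overlap between the groups.

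For the last 3 of the 15 falls the call hung on single arrays. Scn7a, an atypical sodium channel, read 6.86 to 7.54 (median 7.19) in WT and 6.16 to 6.89 (median 6.60) in KO, -0.58 (SE 0.13, adjusted p = 0.023), and was not called without WT sham replicate 2 or KO sham replicate 12. Efcab1, a gene of axonemal dynein, read 6.96 to 7.92 (median 7.26) against 6.53 to 6.98 (median 6.91), -0.53 (SE 0.13, adjusted p = 0.046). Its highest WT values, 7.92 and 7.78, were likewise from WT sham replicates 25 and 2. Pcdhb6, a clustered protocadherin of neuronal surfaces, read 7.23 to 7.66 (median 7.35) against 6.43 to 7.14 (median 6.84), -0.50 (SE 0.13, adjusted p = 0.043). Efcab1 lost its call in 12 and Pcdhb6 in 11 of the 14 fits that left out 1 sham array.

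Among the 15 called named genes that rose most, Serpina3n and Gfap led by size and are described with the astrocyte genes. Csnka2ip, named as an interaction partner of casein kinase 2, read 5.18 to 5.99 (median 5.58) in WT and 6.45 to 6.79 (median 6.61) in KO, higher by 1.06 (SE 0.11, adjusted p = 1.4e-06). Its WT values lie near the array medians of 5.79 to 5.86. Wdfy1, an endosomal adaptor in Toll-like receptor signalling, read 8.05 to 8.24 (median 8.14) against 8.85 to 9.20 (median 9.04), higher by 0.88 (SE 0.06, adjusted p = 1.0e-09). Mpi, the isomerase that links fructose and mannose phosphates for protein glycosylation, read 8.49 to 8.68 (median 8.62) against 8.996 to 9.40 (median 9.24), higher by 0.64 (SE 0.06, adjusted p = 1.7e-07). All 7 KO values were above all 7 WT values in each of these 3 genes.

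Tgm3, a transglutaminase that crosslinks proteins, read 6.47 to 6.76 (median 6.59) in WT and 7.01 to 7.47 (median 7.13) in KO, higher by 0.59 (SE 0.08, adjusted p = 6.2e-05). Nvl, a nucleolar AAA ATPase of ribosome assembly, read 11.10 to 11.27 (median 11.19) against 11.64 to 11.87 (median 11.71), higher by 0.51 (SE 0.06, adjusted p = 2.4e-05). Mss51, named for mitochondrial translation, read 5.37 to 5.61 (median 5.51) against 5.85 to 6.11 (median 5.96), higher by 0.49 (SE 0.05, adjusted p = 2.9e-06). The groups stood apart in each, although the Mss51 WT signal is below the array medians. Capn6, a calpain relative, rose by 0.50 (SE 0.07, adjusted p = 6.2e-05), from 5.86 to 6.07 (median 5.91) in WT and 6.29 to 6.61 (median 6.38) in KO. Cttnbp2, a cortactin-binding protein of dendritic spines, rose by 0.47 (SE 0.08, adjusted p = 0.0018), from 11.84 to 11.99 (median 11.92) in WT and 12.26 to 12.54 (median 12.38) in KO. Oacyl, an acyltransferase-like gene, rose by 0.50 (SE 0.07, adjusted p = 1.0e-04), from 5.86 to 6.16 (median 6.08) in WT and 6.20 to 6.66 (median 6.54) in KO. None of these 3 overlapped.

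Rps15-ps2, a pseudogene copy of the ribosomal protein gene Rps15 whose signal cannot be told apart from near-identical copies, rose by 0.47 (SE 0.08, adjusted p = 0.0014), at 9.70 to 9.95 (median 9.83) in WT and 10.13 to 10.51 (median 10.30) in KO. The other rises overlapped. Pnck, a calcium and calmodulin-dependent kinase, read 8.86 to 9.56 (median 9.06) in WT and 9.39 to 10.13 (median 9.66) in KO, higher by 0.56 (SE 0.13, adjusted p = 0.028). Igfbp5, which binds insulin-like growth factors, read 9.82 to 10.28 (median 9.91) against 10.26 to 10.81 (median 10.47), higher by 0.51 (SE 0.13, adjusted p = 0.047). Ntsr2, the neurotensin receptor of astrocytes, read 11.88 to 12.25 (median 12.04) against 12.09 to 12.79 (median 12.52), higher by 0.49 (SE 0.13, adjusted p = 0.047). Each of these 3 lost its call when single arrays were left out, in 8, 12 and 12 of 14 fits.

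RNA-processing genes other than Rbm5 moved little, and those that passed were mostly higher in KO. Of 44 measured core spliceosome proteins, 4 rose and none fell, with a median difference of 0.06 (all named genes: 1.4% called, 0.884% higher, median -0.00). Of these 44, 43 were brighter than the lowest array median. Among the 12050 distinct named-gene clusters that bright, 2.17% were called, 169 higher and 93 lower, with a median of 0.02. In injured cortex the median of the spliceosome list was -0.01, with 2 members called higher and none lower. Sf3b3, a subunit of the branch-site factor SF3b, read 9.60 to 9.77 (median 9.69) in WT and 10.004 to 10.11 (median 10.07) in KO, higher by 0.37 (SE 0.06, adjusted p = 6.5e-04). Dhx15, the helicase that takes spliceosomes apart and that Rbm5 can stimulate, read 10.91 to 11.01 (median 10.94) against 11.15 to 11.42 (median 11.25), higher by 0.31 (SE 0.04, adjusted p = 2.4e-05). For both genes every KO animal was above every WT animal. Snrnp70, a protein of the U1 particle, differed by 0.21 (adjusted p = 0.041) and Luc7l, another U1-associated protein, by 0.19 (adjusted p = 0.028). The WT and KO values of Snrnp70 and Luc7l overlapped, and their calls were lost in 10 and 5 of 14 fits without 1 array.

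Of 36 measured SR and hnRNP splicing regulators, Srrm1 rose and Hnrnpdl fell. Srrm1, a coactivator that bridges splicing factors on exon enhancers, read 10.42 to 10.59 (median 10.50) in WT and 10.75 to 10.94 (median 10.88) in KO, higher by 0.36 (SE 0.05, adjusted p = 5.4e-05). The genotypes did not overlap for it. None of 35 measured genes of the RNA-binding motif (RBM) family beside Rbm5 was called by limma, with 8 at an unadjusted p under 0.05. Such counts, here and for the lists below, stand against 2501 of 19791 named genes at an unadjusted p under 0.05. Rbm6, a relative of Rbm5 that lies beside it on chromosome 9, read 9.52 to 9.66 (median 9.62) against 9.64 to 9.77 (median 9.69), a difference of 0.08 (SE 0.04, adjusted p = 0.34). The largest difference in this family, Rbm28 at 0.21, had an adjusted p of 0.18. Among 25 measured neuronal splicing regulators none was called, with 6 at an unadjusted p under 0.05, and the values included Tia1 at 0.16 (adjusted p = 0.072), Elavl3 at 0.19 (0.12) and Nova1 at -0.18 (0.38).

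The genes reported as Rbm5 targets in other systems did not pass. Of 11 measured, the gene that did was Rbm5 itself, and the median difference was 0.07. Casp2, an initiator caspase, read 7.98 to 8.06 (median 8.03) in WT and 8.01 to 8.10 (median 8.05) in KO, a difference of 0.02 (SE 0.04, adjusted p = 0.88). Fas, the death receptor, differed by 0.11 (SE 0.10, adjusted p = 0.76) and Cflar, an inhibitor of caspase 8 activation, by 0.07 (SE 0.05, adjusted p = 0.68). These are single values for a whole gene and do not separate its isoforms. None of 34 measured apoptosis regulators was called by limma, with 1 at an unadjusted p under 0.05, and the differences ran from -0.25 for Casp1 (adjusted p = 0.54) to 0.11 for Casp8 (adjusted p = 0.79).

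Further genes that handle RNA were called outside the lists and were picked after their values were seen. Ccnl2, a cyclin found in splicing speckles, rose by 0.33 (SE 0.05, adjusted p = 1.0e-04), at 9.02 to 9.23 (median 9.20) in WT and 9.37 to 9.63 (median 9.48) in KO. Thoc2, of the THO complex that couples transcription to RNA export, rose by 0.26 (SE 0.04, adjusted p = 2.1e-04), while Thoc1, another subunit of that complex, fell by 0.22 (SE 0.04, adjusted p = 0.0049). Thoc2 thus went up and Thoc1 down, with overlap between genotypes for Thoc1. Ess2, a splicing-associated nuclear protein, rose by 0.32 (adjusted p = 0.0043), Ccar1 by 0.29 (adjusted p = 8.3e-04) and Cwc27, a spliceosomal cyclophilin, by 0.24 (adjusted p = 0.0056). Smg1, the kinase that starts nonsense-mediated decay, read 11.30 to 11.48 (median 11.38) against 11.09 to 11.22 (median 11.12), a difference of -0.26 (SE 0.04, adjusted p = 3.1e-04). In Ccnl2, Thoc2, Ess2, Ccar1, Cwc27 and Smg1 the groups did not overlap. Clk1, a kinase of SR proteins, Bcas2, Drosha, Papola and Nsun6 rose by 0.16 to 0.26 with adjusted p between 0.016 and 0.041, and each lost its call in some fit without 1 array.

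The cytosolic ribosomal proteins lay above 0 in each of the 24 measured members out of 51 in the list, with a median difference of 0.17, and 3 were called, all higher. Over all 19791 named genes 9846 lay above 0 and 1.4% were called. All 24 members were brighter than the lowest array median. Of the 12050 distinct named-gene clusters that bright, 4697 lay below 0, 2.17% were called and the median was 0.02. In injured cortex the median of the same ribosomal list was -0.00. Members without a row that names 1 gene have no value here, so the list stands for the measured ones alone. Rps15 read 7.89 to 8.19 (median 8.11) in WT and 8.39 to 8.59 (median 8.49) in KO, higher by 0.44 (SE 0.06, adjusted p = 8.1e-05). Rps24 was higher by 0.26 (SE 0.05, adjusted p = 0.014) and Rps7 by 0.23 (SE 0.06, adjusted p = 0.038). For Rps15, Rps24 and Rps7 no KO array read below a WT array. Rps24 was not called without KO sham replicate 12, and Rps7 was not called in 9 of 14 fits without 1 array. Sequence copies make all 3 values uncertain, since their signal can include pseudogene transcripts. The mean over the 24 members was 9.16 to 9.32 on the WT arrays and 9.31 to 9.55 on the KO arrays.

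Reactive astrocyte genes were split between 2 large rises and 20 members that did not pass. Gfap, the intermediate filament of astrocytes, read 10.77 to 11.55 (median 10.95) on the WT arrays. On the KO arrays it read 12.96, 12.22, 12.72 and 12.67 in replicates 9, 10, 11 and 12, then 13.86, 11.51 and 10.86 in replicates 31, 32 and 33. Replicates 32 and 33 thus lay within the WT range and the other 5 above it. The fitted difference was 1.36 (SE 0.31, adjusted p = 0.026). Serpina3n, a secreted protease inhibitor that astrocytes make on activation, read 7.81 to 8.74 (median 8.11) in WT and 8.16 to 11.69 (median 9.39) in KO, higher by 1.42 (SE 0.34, adjusted p = 0.036), with KO replicate 31 again highest and replicate 33 lowest.

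The fit pools the spread of all 4 groups, and the KO sham arrays vary more than the WT sham arrays for these genes. In a fit of the 14 sham arrays alone the adjusted p was 0.086 for Gfap and 0.13 for Serpina3n, and neither was called. Gfap also lost its call without WT sham replicate 2 or 25 or KO sham replicate 9, 11, 12 or 31, with differences between 1.13 and 1.63 over the 14 such fits. For Serpina3n that happened in 9 of 14 fits. The other members did not follow to the same degree. Vim, a second intermediate filament, read 8.59 to 9.10 (median 8.91) in WT and 8.52 to 9.82 (median 9.48) in KO, 0.36 (SE 0.20, adjusted p = 0.55), with KO replicate 31 highest. Osmr, a cytokine receptor, differed by 0.13 (adjusted p = 0.77), and the median over the 22 measured members was -0.01. In injured cortex, where Gfap reached 14.69 to 16.18 in WT, the genotype difference of Gfap was -0.13 and that of Serpina3n -0.11. The difference between the sham and injured effects was 1.49 for Gfap (SE 0.44, adjusted p = 0.74) and 1.52 for Serpina3n (SE 0.48, adjusted p = 0.78), which did not pass.

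**Figure D2:**
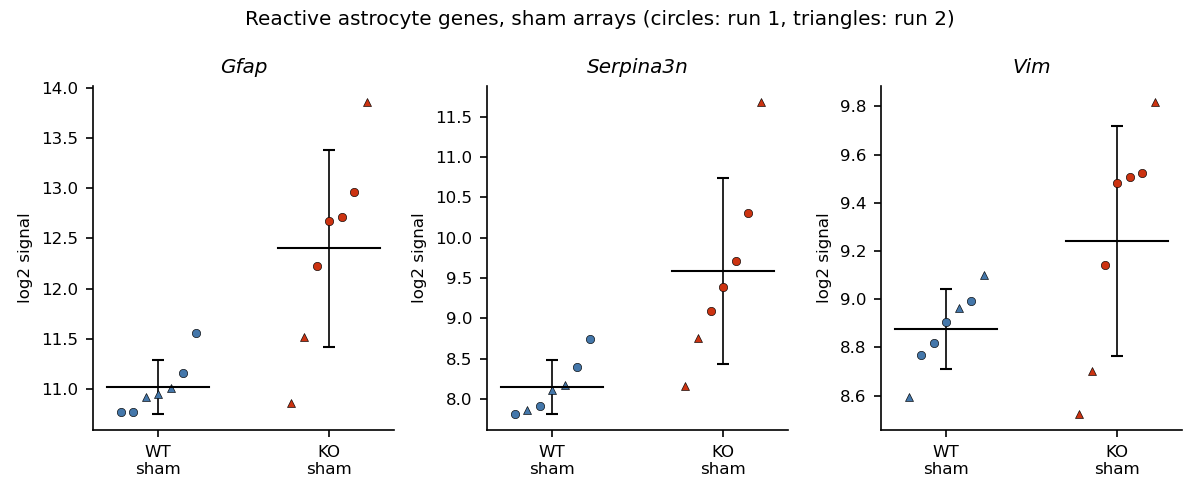
Deposited log2 signal (y axis) of Gfap, Serpina3n and Vim on the 7 WT sham and 7 KO sham arrays, with circles for title numbers 1 to 24 and triangles for 25 to 42; bars are group means and whiskers 1 SD. KO sham replicate 31 is the highest array for each gene, and replicate 33 the lowest of the KO sham arrays, within or below the WT sham range.

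Other cell type markers gave few calls. In bulk tissue, fewer cells of a type and less RNA per cell cannot be told apart. Of 14 homeostatic astrocyte genes, Ntsr2 was called. Among 19 excitatory neuron and cortical layer genes Rasgrf2 was called, and the next largest differences were Neurod6 at 0.37 (adjusted p = 0.16) and Fezf2, a deep-layer transcription factor, at 0.35 (0.19). None of 18 inhibitory neuron genes was called (3 at an unadjusted p under 0.05), with Npy at 0.34 (adjusted p = 0.097), Sst at 0.31 (0.45) and the fast potassium channel Kcnc2 at -0.30 (0.12). All 14 measured mature oligodendrocyte genes lay above 0, with a median of 0.26 and none called (7 at an unadjusted p under 0.05). In injured cortex the median of this list was -0.27, the opposite sign, with 1 member called lower. Cldn11, a myelin tight junction gene, read 10.55 to 11.25 (median 11.14) in WT and 11.17 to 11.58 (median 11.36) in KO, 0.38 (SE 0.15, adjusted p = 0.29). Mag and Mog, both of the myelin membrane, gave 0.37 and 0.35 (adjusted p = 0.35 and 0.37). The mean over the myelin list was 9.83 to 10.30 on the WT arrays, lowest in replicate 25, and 10.04 to 10.63 on the KO arrays, so the groups overlapped.

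Microglial and immune lists had no call by limma. For 14 homeostatic microglia genes the median was 0.09 (1 at an unadjusted p under 0.05), with Fcrls at 0.42 (adjusted p = 0.57) and Itgam, an integrin of myeloid cells, at 0.28 (0.26). For 18 phagocytic microglia and macrophage genes it was 0.05 (0), with Ly86 at 0.43 (0.54) and the lysosomal protease gene Ctss at 0.31 (0.53). For 17 monocyte and neutrophil genes it was -0.04 (1), and the alarmin gene S100a8 read 7.02 on WT sham replicate 2 against a WT median of 4.84. The medians of the border macrophage, lymphocyte, endothelial, pericyte and leptomeningeal lists lay between -0.07 and -0.02, with none called (2 endothelial genes and none of the others at an unadjusted p under 0.05). Dim signal limits some of these lists. Genes brighter than the lowest array median numbered 0 of 11 for lymphocytes, 5 of 8 for border macrophages and 7 of 17 for monocytes and neutrophils. Oligodendrocyte precursor genes had a median of 0.07, none called and 1 at an unadjusted p under 0.05. Choroid plexus genes were lower in KO in all 10 measured members, with a median of -0.39 and none called (1 at an unadjusted p under 0.05). Their mean was 7.74 on WT sham replicate 25 and at most 5.99 on the KO arrays, with a WT median of 5.89. Markers of striatum (median 0.13), hippocampus (-0.04) and thalamus (-0.05), which could enter with the dissection, had none called (0, 1 and 1 at an unadjusted p under 0.05), and Drd2 of the striatum read 5.81 to 6.90 in WT and 6.19 to 8.34 in KO.

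Of the remaining lists, a few had single calls. Antioxidant and metal-handling genes held Nnt, the mitochondrial transhydrogenase, at 7.90 to 8.27 (median 7.94) in WT and 8.12 to 8.56 (median 8.27) in KO, higher by 0.33 (SE 0.07, adjusted p = 0.013), and Gclc, the rate-limiting enzyme of glutathione synthesis, lower at -0.20 (SE 0.04, adjusted p = 0.022). Both overlapped between genotypes, and Gclc was not called without WT sham replicate 2 or 25 or KO sham replicate 11. Among 20 cytokine and chemokine genes Lif was lower at -0.20 (adjusted p = 0.035), near the floor of the arrays at 4.97 to 5.23 in WT and 4.82 to 4.94 in KO, and it lost its call in 9 of 14 fits. No call was made by limma among 24 synapse genes (2 at an unadjusted p under 0.05), 29 potassium channel genes (7), 18 immediate early genes (1), 18 circadian genes (2), 21 interferon-induced genes (1), 16 complement and MHC genes (1), 21 cell cycle genes (0), 13 heat shock genes (1), 27 oxidative phosphorylation genes (4), 17 cholesterol synthesis genes (6) or 11 long noncoding RNAs (4). Members at the edges of those lists were Dusp1 at -0.42 (adjusted p = 0.60), Ifitm3 at 0.44 (0.47), the complement gene C4b at 0.43 (0.29), Hmgcs1 at -0.23 (0.44) and Neat1 at 0.36 (0.11).

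**Figure D3:**
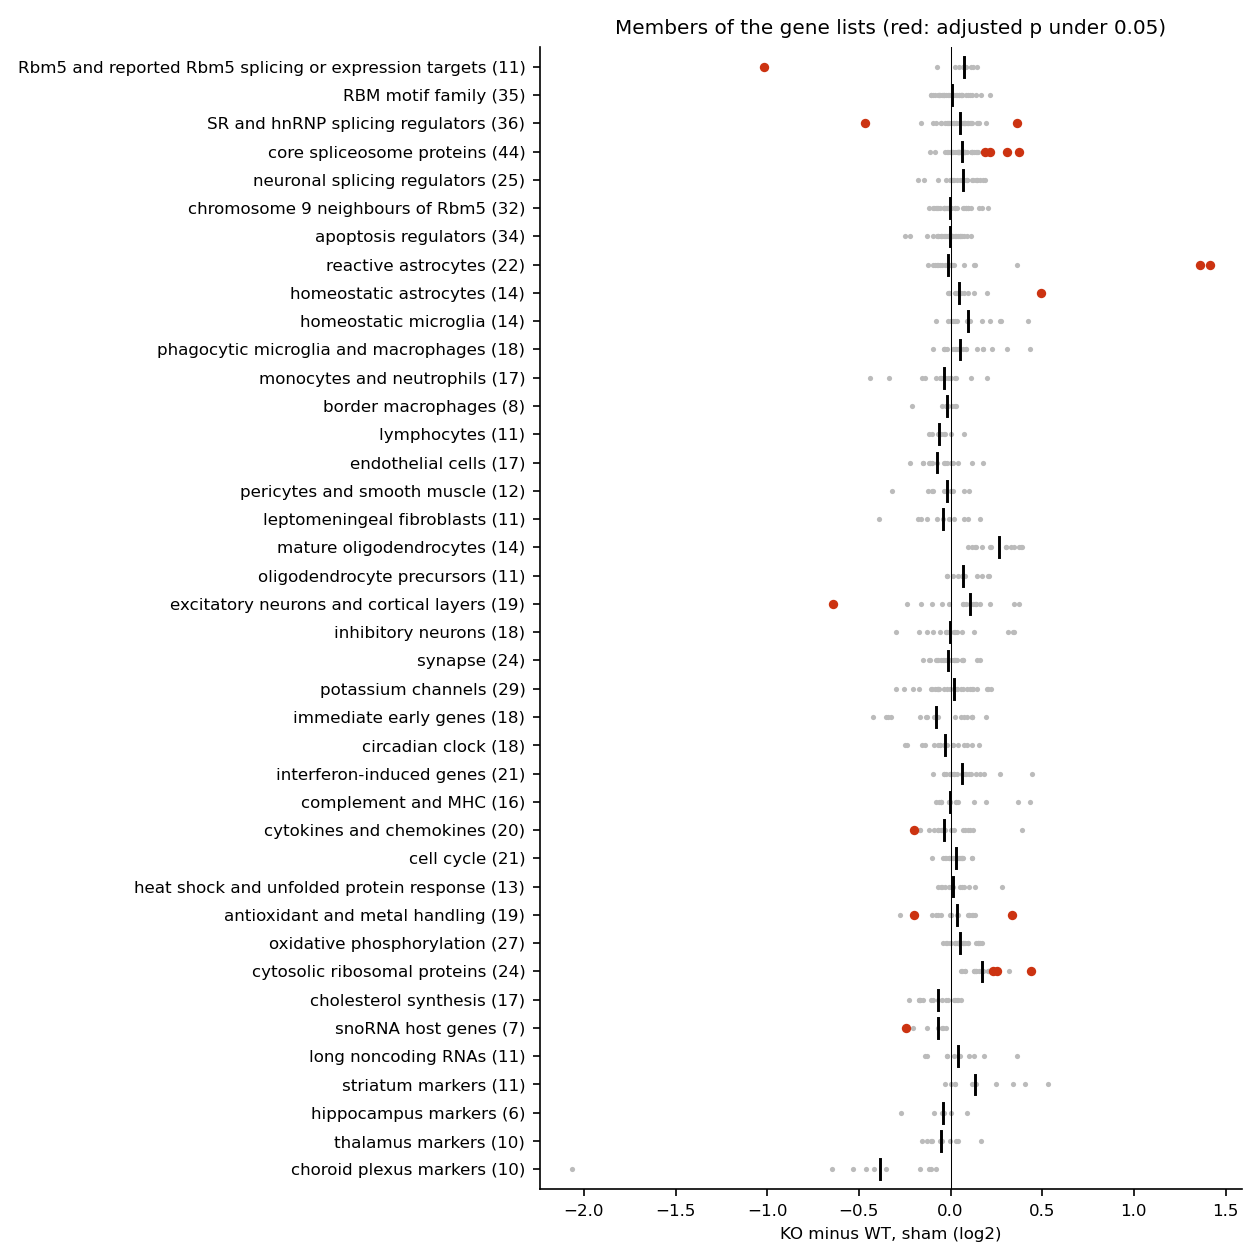
KO minus WT difference in sham cortex (x axis, log2) for every measured member of 40 gene lists, with the number measured in parentheses; red points had an adjusted p under 0.05, grey points did not, and black bars are list medians. The red points of the core spliceosome and ribosomal protein lists lie above 0, and Gfap and Serpina3n stand far to the right of the other reactive astrocyte genes.

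Genes of cilia, genome maintenance and neurons were also among the calls, again named after their values were seen. Structural and transport genes of cilia went both ways. Odf2, of the basal body, fell by 0.37 (SE 0.05, adjusted p = 7.7e-05), at 8.56 to 8.77 (median 8.70) in WT and 8.23 to 8.42 (median 8.32) in KO. Ift20, which carries cargo into cilia, fell by 0.32 (SE 0.06, adjusted p = 0.0035), Bbs5 by 0.32 (SE 0.05, adjusted p = 0.0011) and Ttc8 by 0.27 (SE 0.05, adjusted p = 0.0037), the last 2 being subunits of the BBSome. Invs rose by 0.31 (SE 0.05, adjusted p = 2.5e-04) and Ccdc39 by 0.33 (SE 0.05, adjusted p = 6.8e-04). In these 6 genes the genotypes did not overlap. Ift172 and Cfap47 fell by 0.21 and 0.33 and Alms1 rose by 0.19, each losing its call in some fits without 1 array.

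Atr, the kinase that senses stalled replication, read 8.03 to 8.14 (median 8.08) in WT and 8.34 to 8.45 (median 8.39) in KO, higher by 0.31 (SE 0.04, adjusted p = 2.2e-05). Rev1, a translesion polymerase, rose by 0.32 (SE 0.06, adjusted p = 0.0016), at 8.93 to 9.04 (median 8.98) against 9.25 to 9.47 (median 9.29). Both genes separated the genotypes, whereas Rad52 and Rev3l, at 0.18 and 0.16, lost their calls in 11 and 12 of 14 fits. Afg3l1, a mitochondrial protease subunit, rose by 0.45 (SE 0.05, adjusted p = 2.1e-06), at 7.60 to 7.93 (median 7.73) in WT and 8.06 to 8.26 (median 8.24) in KO. Of genes with roles in neurons, Nefl, the light neurofilament, fell by 0.35 (SE 0.06, adjusted p = 0.0038), at 14.21 to 14.52 (median 14.38) in WT and 13.95 to 14.17 (median 14.01) in KO. Mtor fell by 0.25 (SE 0.05, adjusted p = 0.0031), Map3k12, the axon injury kinase, by 0.25 (SE 0.05, adjusted p = 0.0030) and Glrb, the glycine receptor beta subunit, by 0.22 (SE 0.05, adjusted p = 0.0099). No KO array overlapped the WT range in Nefl, Mtor, Map3k12 or Glrb. Grik3, a kainate receptor subunit, and Clstn2, a synaptic calsyntenin, rose by 0.30 and 0.39 (adjusted p = 0.020 and 0.023), and Cacna2d1, a calcium channel subunit, fell by 0.28 (adjusted p = 0.041), with calls that depended on single arrays.

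Counted as rows, small RNAs made up the largest block of falls. With identical rows counted once, 127 small RNA profiles were called lower, against 144 profiles of clusters with no name here. Of 2977 small RNA clusters 231 were called, 227 lower and 4 higher. By biotype, 117 of 957 snoRNA clusters (12.2%) and 106 of 926 snRNA clusters (11.4%) were called, against 5 of 925 miRNA clusters (0.541%) and none of 94 rRNA clusters (limma, 1 at an unadjusted p under 0.05). Many rows are copies: the snoRNA calls hold 72 of 858 distinct profiles (8.39%) and the snRNA calls 52 of 849 (6.12%). Outside chromosome 7, 29 of 752 snoRNA clusters were called (3.86%). Box C/D snoRNAs, which guide methylation of ribosomal RNA, are the Snord genes, and 18 of 45 Snord clusters were called, all lower, while none of 19 Snora clusters (box H/ACA, which guide pseudouridine formation) was called (1 at an unadjusted p under 0.05). The signal of a snoRNA and that of the unspliced host transcript around it cannot be told apart here.

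Snord69 read 17.90 to 18.23 (median 18.16) in WT and 17.01 to 17.65 (median 17.23) in KO, a difference of -0.77 (SE 0.09, adjusted p = 1.6e-05). Snord71 read 11.66 to 11.96 (median 11.84) against 11.05 to 11.53 (median 11.18), -0.61 (SE 0.08, adjusted p = 6.0e-05). Snord55 read 13.80 to 14.25 (median 14.04) against 12.56 to 13.58 (median 12.90), -1.03 (SE 0.14, adjusted p = 8.1e-05). In all 3 the KO arrays lay below the WT arrays. Snord70 was lower at -0.93 (SE 0.14, adjusted p = 1.9e-04) and Scarna9, a guide RNA of Cajal bodies, at -0.98 (SE 0.15, adjusted p = 4.8e-04), also without overlap. The 3 predicted small RNA loci Gm26109, Gm23301 and Gm26202 gave -1.09, -0.80 and -0.56 (adjusted p = 2.4e-05, 5.2e-05 and 5.3e-05).

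Chromosome 7 held 99 of the 231 small RNA calls, with 88 of its 205 snoRNA clusters called lower (43 of 113 distinct profiles). Snhg14, the long host transcript of the imprinted snoRNA clusters there, was called lower at -0.24 (SE 0.06, adjusted p = 0.041), at 14.04 to 14.21 (median 14.16) in WT and 13.78 to 14.02 (median 13.89) in KO, and lost its call in 10 of 14 fits without 1 array. On the level of single arrays, the median over the 103 brighter distinct snoRNA profiles of chromosome 7, relative to the WT sham mean, ran from -0.05 to 0.10 in WT sham and from -0.34 to -0.06 in KO sham, so no KO array reached the lowest WT array. The snRNA median ran from -0.09 to 0.11 in WT and from -0.34 to 0.01 in KO, and its KO values were -0.34 to -0.20 in the first run of title numbers and -0.16 to 0.01 in the second. The KO values of the chromosome 7 snoRNAs were -0.34 to -0.24 in the first run and -0.25 to -0.06 in the second. For the brighter Snord clusters they were -0.55 to -0.39 and -0.38 to -0.16. Ribosomal RNA rows ran from -0.53 to 0.36 in WT and -0.59 to 0.48 in KO. Their KO values were -0.59 to -0.15 in the first run and 0.08 to 0.48 in the second. Whether array-to-array differences in abundant noncoding RNA have a part in the snRNA and snoRNA calls was not tested.

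**Figure D4:**
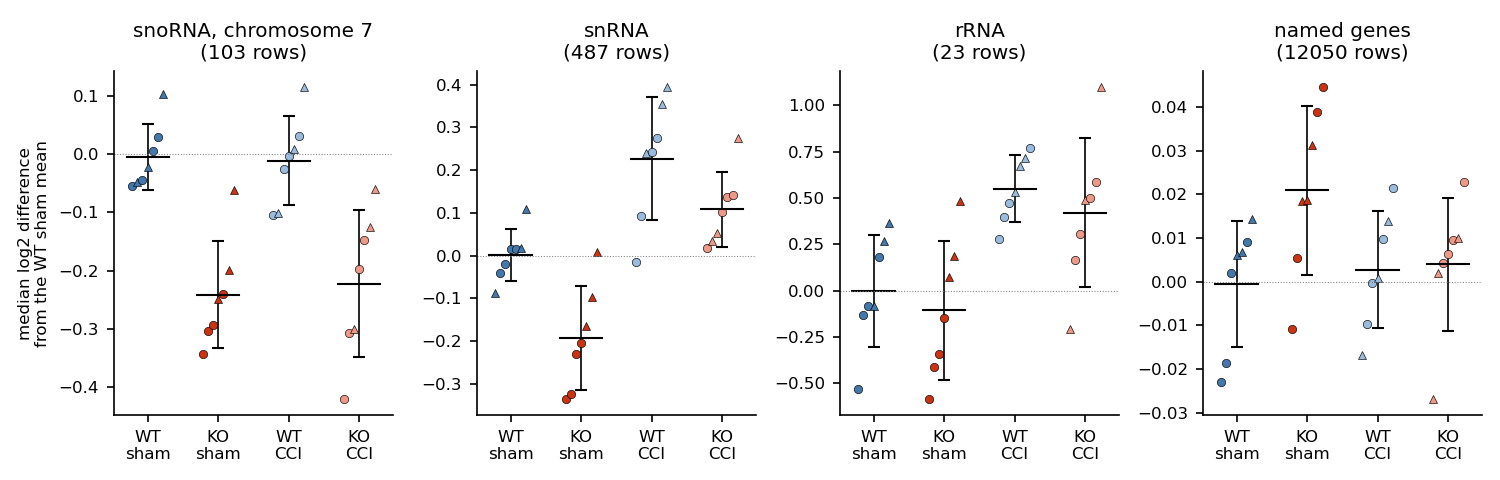
Median log2 difference of each array from the WT sham mean (y axis) over the distinct, brighter rows of 4 classes, by group, with circles for title numbers 1 to 24 and triangles for 25 to 42; bars are group means and whiskers 1 SD. The group means of chromosome 7 snoRNAs are lower in both KO groups, snRNAs are lowest in the KO sham arrays of the first run, and named genes stay within 0.05 of 0.

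The 5 miRNA loci called are shown with their mature sequences, since these are the molecules that would act on targets. The array rows measure the precursor locus, not the mature strand. The sequences are from RefSeq (GRCm38.p6), all 5 loci were matched, and capitals mark the seed, bases 2 to 8.
mmu-miR-154-5p: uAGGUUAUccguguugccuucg
mmu-miR-154-3p: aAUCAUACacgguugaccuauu
mmu-miR-344-5p: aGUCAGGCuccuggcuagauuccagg
mmu-miR-344-3p: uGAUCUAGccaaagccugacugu
mmu-miR-744-5p: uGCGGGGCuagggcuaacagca
mmu-miR-744-3p: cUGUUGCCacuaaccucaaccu
mmu-miR-6955-5p: aGGGCCUCaggacucaggagguga
mmu-miR-6955-3p: aCACCUGUcuccuuugcccaca
mmu-miR-681: cAGCCUCGcuggcaggcagcu
The 9 sequences carry 9 distinct seeds. Mir154 (chr12:109738438-109738459 for the 5p strand), of the imprinted cluster on chromosome 12, was higher by 0.37 (SE 0.09, adjusted p = 0.030), at 8.03 to 8.59 (median 8.34) in WT and 8.39 to 8.91 (median 8.71) in KO. Mir744 and Mir344-2 were higher by 0.30 (SE 0.07, adjusted p = 0.041) and 0.25 (SE 0.06, adjusted p = 0.038). Mir6955 was lower at -0.46 (SE 0.11, adjusted p = 0.026), at 6.95 to 7.74 (median 7.23) against 6.49 to 6.91 (median 6.85), and Mir681 at -0.29 (SE 0.08, adjusted p = 0.049). Mir6955 was the locus of the 5 in which the genotypes did not overlap, and each of the 5 lost its call in 4 to 12 of 14 fits without 1 array.

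By chromosome, the share of clusters called was highest for chromosome 7 (135 of 4624, 2.92%) and chromosome 2 (99 of 5468, 1.81%). Copied rows and small RNAs carried the first share: with identical rows counted once it was 86 of 4445 (1.93%) on chromosome 7 and 96 of 5411 (1.77%) on chromosome 2, and without small RNAs 0.835% and 1.83%. On chromosome 2, 57 of the 99 calls were clusters with no name here, 49 of them lower. The distal segment of chromosome 2 around Zfp972, an array of closely related zinc finger genes and gene models, held 134 placed clusters, of which 12 were called, all lower (8.96%). The bounds of this segment were chosen after its values were seen. The calls include Gm14444 at 9.02 to 9.26 (median 9.18) in WT and 8.51 to 8.77 (median 8.64) in KO, -0.51 (SE 0.07, adjusted p = 1.9e-04), and Gm14390 and Gm14417 at -0.61 each, the last with overlap. The copies in this array are near-identical, so their probes may report each other and the 12 rows are not independent. Gene models outside these 12 rows gave larger falls without overlap, Gm14415 on chromosome 2 at -0.99 (SE 0.13, adjusted p = 5.7e-05) and Gm11488 on chromosome 4 at -0.87 (SE 0.09, adjusted p = 7.4e-07). Whether Gm14415 belongs to the same array of copies was not tested.

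Neighbours of Rbm5 on chromosome 9 were examined by distance. Within 2 Mb of the gene in the RefSeq assembly, 4 of 133 clusters were called (3.01%, against 1.28% of all clusters), all lower, and these are 2 distinct profiles. Within 10 Mb it was 6 of 305 (1.97%), 1 higher and 5 lower, in 4 distinct profiles. P4htm, a prolyl hydroxylase of the endoplasmic reticulum, read 7.80 to 8.02 (median 7.96) in WT and 7.60 to 7.78 (median 7.65) in KO, -0.29 (SE 0.05, adjusted p = 0.0031). The second profile is shared by the snRNA copies Gm22821, Gm25484 and Gm24641, at -0.39 (SE 0.10, adjusted p = 0.041). P4htm separated the genotypes and the snRNA profile did not. None of the 32 measured genes on a list of the closest neighbours was called by limma, with 4 at an unadjusted p under 0.05. Values on the whole list included Gnai2 at 0.20 (adjusted p = 0.31), Nprl2 at 0.17 (0.50) and Sema3b at -0.12 (0.20).

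The 14 injured arrays hold other animals of the same genotypes and so give the same measure outside the sham comparison. Of the 847 sham calls, 798 (94.2%) had the same sign between KO CCI and WT CCI, against 54.4% of all clusters tested. In the injured animals 431 clusters were called (0.653%), and 243 of these were sham calls in the same direction, which is 28.7% of the sham calls and 56.4% of the injured calls, with none in the opposite direction. The 2 contrasts share 1 estimate of the spread in that fit. When the 14 sham and 14 injured arrays were fitted apart, 665 and 131 clusters were called (1.01% and 0.199%) and 112 were shared, all in the same direction. Among the named sham calls, 87 of 278 were also called in injured cortex, 42 of the 176 higher and 45 of the 102 lower.

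Rbm5 differed by -0.91 in injured cortex (adjusted p = 8.0e-15), Akr1b10 by -0.77 (2.9e-08), Zfp972 by -0.63 (3.7e-06), Akap8l by -0.50 (7.4e-06) and Hnrnpdl by -0.50 (3.0e-05). Csnka2ip was higher by 1.04 (1.9e-06), Wdfy1 by 0.74 (2.9e-08), Mpi by 0.57 (1.1e-06), Nvl by 0.51 (3.0e-05) and Dhx15 by 0.28 (9.1e-05). These genes were called in both states with the same sign. Others were not called after injury: Sf3b3 at 0.24 (adjusted p = 0.060), Rps15 at 0.20 (0.16), Igfbp5 at 0.15 (0.77), Efcab1 at -0.19 (0.70) and Hgf at -0.16 (0.48). A test of the difference between the sham and injured genotype effects passed for none of the 65956 clusters by limma, with 4097 at an unadjusted p under 0.05, so no gene is shown to differ between the states. Of the 231 small RNA calls 229 kept their sign in injured cortex and 41 were called there. The counts of calls, copied rows included, differed by class. Over all snoRNA clusters 116 were called lower in sham and 48 in injured cortex. Over all snRNA clusters it was 106 in sham and 1 in injured cortex. The median over brighter distinct snRNA profiles was -0.19 in sham and -0.09 in injured cortex. For snoRNAs it was -0.23 and -0.20 on chromosome 7, and -0.05 and 0.03 on other chromosomes.

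**Figure D5:**
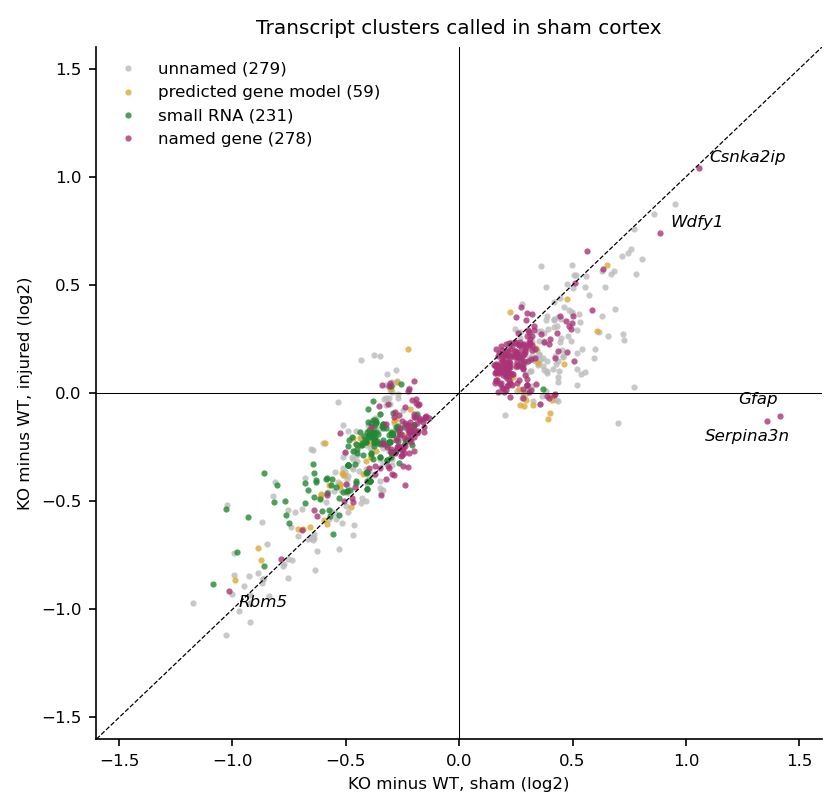
KO minus WT difference in sham cortex (x axis, log2) against the same in injured cortex (y axis, log2) for the 847 clusters called in sham, coloured by class, with a dashed line of equal values. Of these points 798 have the same sign on both axes, and Gfap and Serpina3n lie near 0 on the injured axis.

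The genotype difference was also compared between sexes within the sham animals. No cluster differed between males and females by limma, with 3747 at an unadjusted p under 0.05, and none did in the 14 sham arrays alone (4699 at an unadjusted p under 0.05). Males alone (4 KO, 3 WT) gave 20 calls and females alone (3 KO, 4 WT) 93, and Rbm5 was lower in both.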

How the data were processed

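Deposited log2 values of 72688 transcript clusters on 28 Affymetrix MTA 1.0 arrays were used as given. Per the labels, total RNA was extracted with Trizol and labelled by the manufacturer's protocol. The authors' summary and normalization steps behind the deposited log2 values are not stated in the labels. The 6732 control rows were left out, which leaves 65956.

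Names came from the platform annotation, updated through RefSeq (GRCm38.p6, 827 symbols changed): 30468 tested clusters listed 1 symbol, 612 several names of 1 gene, 1670 several genes and 33206 none. Of those with a name, 94 whose chromosome differed between sources were treated as unnamed. Clusters of several genes, such as that of Rbm10, have no value here. No array row gives coordinates.

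Differences were fitted with limma 3.58.1 (R 4.3.3; lmFit and eBayes) over all 28 arrays as 4 group means plus sex, with Benjamini-Hochberg adjustment and a threshold of 0.05. The script was tested on simulated data. Figures and counts used Python 3.11.15, pandas 2.3.3 and matplotlib 3.10.9. Named genes are the 15 largest rises and falls among called genes, Rbm5, Rbm6, Casp2, Fas and Cflar, up to 4 members per gene list or class, and those said to be picked later. The comparison and the 42 lists were chosen with earlier results of these data known, so no list counts as independent evidence, and no set test was run. Group sizes limit the precision. Replicates are separate animals, per the series' design text, and p-values measure the spread between these animals.

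Alternatives were sex left out, title-number run added or taken alone, sham arrays alone, other normalizations, filters, thresholds, weights and a variance trend, each sex, and each sham array left out.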

Additional observations from a re-analysis of the deposited data

Results flagged for a closer look

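In 470 groups of 7 sham arrays (the named genes in WT and in KO), an array that stood far from the other 6 by Dixon's test was found 31 times, and chance alone gives about 1 in 20 groups. No cause was tested. WT sham replicate 25 stood apart in 6 genes: Kl, made in the choroid plexus, read 7.84, Ddit3, a stress transcription factor, 8.46 and Ndufs3, of respiratory complex I, 9.81, all above the other WT sham arrays, while the synaptic scaffold Homer1 at 12.07, the potassium channel Kcnt2 at 12.04 and Rbm6 at 9.52 were below them. WT sham replicate 2 was highest for the neutrophil genes S100a8 at 7.02 and S100a9 at 7.79 and for the macrophage receptor Mrc1 at 7.28. WT sham replicate 3 was highest for Nnt at 8.27, Il10 at 4.78 and Tdo2 at 4.84, and lowest for Ocln at 7.52, P4htm at 7.80 and Ttc8 at 8.90. Of the remaining WT sham arrays, replicate 4 was lowest for Emb at 9.30 and Snhg11 at 12.39, replicate 26 was highest for Casp8 at 7.21, and replicate 1 was lowest for Bcas2 at 8.68.

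Among KO sham arrays, replicate 11 was highest for Nvl at 11.87 and Rev1 at 9.47 and lowest for Ddit3 at 8.27. Replicate 31 was lowest for Oacyl at 6.20 and Snhg11 at 12.29, and replicate 32 for Efcab1 at 6.53. Replicate 33 was lowest for Sfpq at 12.10 and highest for P4htm at 7.78. Replicate 9 was highest for the interneuron gene Calb2 at 7.10 and the erythroid gene Alas2 at 6.29, replicate 10 was lowest for Idi1 at 9.32, and replicate 12 was highest for the glutamate receptor gene Gria1 at 14.16. No difference of the genotype effect between sexes or between sham and injured cortex passed its test.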

How the results depend on the processing

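The count of 847 calls (335 higher, 512 lower) moved with the arrays and the threshold. It was 1279 with array quality weights (529 higher), 472 in the first run of title numbers (93 higher), 5 in the second (1 higher, 4 lower), 20 in males (4 higher, 16 lower) and 93 in females (25 higher, 68 lower). At an adjusted p under 0.01 it was 278 (104 higher, 174 lower) and under 0.1 1381 (607 higher, 774 lower). With only clusters brighter than the lowest array median, 550 were higher. Leaving out 1 sham array gave 438 to 895 calls, 178 to 304 higher and 260 to 637 lower. Without a sex term, with the run as a covariate, with the sham arrays alone, after quantile normalization or centring, with only named clusters, with a variance trend or with repeated rows counted once (added after seeing the data), the total stayed within 1.5 times. Rbm5 kept its direction and call under every alternative, and the count by sex stayed 0. Of 87 named called genes, none changed sign under any alternative, 56 kept their call without each single array and 31 lost it at least once. With the 14 sham arrays alone 17 lost their call. No paired analysis was possible because the groups share no replicate numbers. Dim signal limits 55 calls whose mean lies below the lowest array median, and small groups (4 against 4, 3 against 3) limit the within-run counts.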
